A study of Homo sapiens with 16 samples.

Results

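Cholesterol and fatty acid synthesis genes are described here in mouse xenografts of BT474, a line of human breast cancer cells that carry many copies of ERBB2 (HER2). The set is a list of 33 genes grouped by pathway. It holds the enzymes that build sterols from acetyl-CoA, the enzymes that build, desaturate, elongate and activate fatty acids, and the regulators SREBF1, SREBF2 and INSIG1 with the sterol carrier STARD4. Of the 33, 30 were measured on a transcript cluster with a single gene symbol, out of 18377 genes so measured. FDFT1 and ACSL3 are not analysed here, and HSD17B7 was left out because its cluster is shared with the pseudogene HSD17B7P2. FDPS was read from its single-symbol cluster, and a cluster shared by FDPS and the pseudogene FDPSP2 was not used.

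The tumours fell into 3 groups by what an inducible lentiviral vector expressed: SHP2 miR1 (7 tumours), SHP2 miR2 (3 tumours) and CTRL miR (6 tumours), 16 arrays in all. SHP2 is a phosphatase, the product of PTPN11, and carries signals from receptor tyrosine kinases towards RAS and ERK. The cells were BT474 in every group, all mice were immunodeficient and were injected in the mammary fat pad, and all drank doxycycline (2 g per L) for 30 days after tumours had formed, so that the controls carried the vector and the drug too. The labels do not give the mouse strain, sex or age, or say whether each tumour came from its own mouse or whether the transduced cells were 1 clone. The p-values therefore measure the spread between these tumours, part of which may be technical. Total RNA of each dissected tumour was measured on a human gene array, so that fewer cells of a type and less RNA per cell cannot be told apart, and host (mouse) RNA can be in the extract.

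Cells make cholesterol from acetyl-CoA through mevalonate, farnesyl diphosphate, squalene and lanosterol, and they make fatty acids from the same acetyl-CoA through malonyl-CoA. Both pathways are under the SREBP transcription factors (encoded by SREBF1 and SREBF2), which the protein SCAP escorts from the endoplasmic reticulum when sterols are low and which INSIG proteins hold back when sterols are high. Lipogenic enzymes such as fatty acid synthase are known to be high in ERBB2-amplified breast cancer cells.

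The promoter sequences of 4 of the genes are shown because 3 of them, STARD4, ELOVL5 and FDPS, were lower in SHP2 miR2 tumours and the last, SREBF2, encodes the regulator of sterol synthesis and was not. They run from 250 bases before to 50 bases after the gene's start, 5' to 3' on the gene's strand, as given by RefSeq (GRCh38.p14). Capitals mark the letters CCAAT on either strand (ATTGG on the reverse), a box bound by NF-Y, a partner of the SREBPs, and in SREBF2 the sterol element letters TCACNCCAC.
STARD4 (chr5:111512486-111512785, minus strand): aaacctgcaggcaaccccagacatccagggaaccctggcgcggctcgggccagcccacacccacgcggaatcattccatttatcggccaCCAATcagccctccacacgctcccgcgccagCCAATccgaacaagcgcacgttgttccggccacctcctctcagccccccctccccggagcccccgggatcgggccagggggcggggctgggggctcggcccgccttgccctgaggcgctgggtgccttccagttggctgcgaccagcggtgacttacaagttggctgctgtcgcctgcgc
ELOVL5 (chr6:53348901-53349200, minus strand): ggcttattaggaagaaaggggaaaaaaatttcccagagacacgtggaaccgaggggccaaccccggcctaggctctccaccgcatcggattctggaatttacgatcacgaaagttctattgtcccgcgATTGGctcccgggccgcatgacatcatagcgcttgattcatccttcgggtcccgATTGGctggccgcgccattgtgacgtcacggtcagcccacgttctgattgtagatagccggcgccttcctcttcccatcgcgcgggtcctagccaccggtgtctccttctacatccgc
FDPS (chr1:155308616-155308915, plus strand): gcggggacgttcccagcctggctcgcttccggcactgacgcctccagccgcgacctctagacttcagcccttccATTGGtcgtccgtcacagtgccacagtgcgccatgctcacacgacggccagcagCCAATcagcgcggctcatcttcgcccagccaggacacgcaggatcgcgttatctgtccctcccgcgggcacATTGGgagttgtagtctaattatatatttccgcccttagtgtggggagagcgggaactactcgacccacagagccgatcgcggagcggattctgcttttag
SREBF2 (chr22:41832855-41833154, plus strand): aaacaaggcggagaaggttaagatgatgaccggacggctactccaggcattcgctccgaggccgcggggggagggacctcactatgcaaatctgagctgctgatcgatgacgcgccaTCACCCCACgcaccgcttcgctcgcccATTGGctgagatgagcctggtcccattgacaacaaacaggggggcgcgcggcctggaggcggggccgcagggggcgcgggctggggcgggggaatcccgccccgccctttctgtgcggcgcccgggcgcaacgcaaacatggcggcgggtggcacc
Of the 30 measured genes, 27 matched a RefSeq promoter of this length. CCAAT, searched on both strands, was in 17 of the 27 (63.0%), against 35.7% of all 27305 promoters in the table. It was in 6 of the 8 genes lower with miR2 that had a promoter and in 11 of the other 19. Of these 8, ACSL1 and ME1 held no CCAAT, and their promoters are not shown. The GC box letters GGGCGG were in 24 of 27 (88.9%), against 44.6% of all promoters, and the E-box letters CACGTG in 4 of 27 (14.8%), against 7.43%. TCACNCCAC was in 1 of 27, the promoter of SREBF2, where it begins at -133 relative to the gene's start, against 1.15% of all promoters. These are matches of letters in a short window and no test was made of them. The 27305 promoters take in genes beyond the 18377 measured and were not matched to the list for signal level.

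Values are log2 signals, and changes are log2 differences with their standard errors (SE), tested with limma over all 18377 genes. A gene passed at a Benjamini-Hochberg adjusted p below 0.05, and the pooled comparison is the mean of the SHP2 miR1 and SHP2 miR2 changes against CTRL miR. The targeted gene was lower in every knockdown tumour. PTPN11 ran from 6.59 to 7.18 with miR1, was 6.52, 6.53 and 6.34 with miR2, and ran from 8.23 to 8.61 in CTRL miR tumours. Its change was -1.47 ± 0.097 (SE) with miR1 and -1.94 ± 0.12 with miR2 (limma adjusted p = 5.11e-08 and 6.97e-09), and the exact two-sided permutation test gave p = 0.000583 for miR1 and 0.0119 for miR2.

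The arrays differed in 3 ways that the labels do not give. By 5 noncoding RNA genes (RNU4-1, RNU4-2, RPPH1, RMRP and SNORA65) they fell into a set A with a mean of 8.19 to 8.39 (CTRL 1 to 3 and miR1 1 to 4) and a set B with 6.81 to 7.21 (CTRL 4 to 6, miR1 5 to 7 and all 3 miR2 tumours). Control tumours 1, 3, 4 and 6 had IRS4, an insulin receptor substrate, at 7.14 to 8.29 and the homeobox gene HOXD10 at 7.31 to 7.83, whereas control tumours 2 and 5 and all knockdown tumours had IRS4 at 2.97 to 3.91 and HOXD10 at 3.27 to 4.17. The arrays of SHP2 miR2 tumours 1 and 3 had a narrower spread over all clusters (SD 1.89 each) than the other 14 (1.95 to 2.07). Of the luminal markers, KRT8 and KRT18 were at 10.96 to 11.82, EPCAM at 10.36 to 11.08 and ERBB2 at 10.59 to 11.32, while TFAP2B was at 4.04 to 4.75.

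With SHP2 miR2, 9 of the 30 lipid synthesis genes fell and none rose: STARD4, ELOVL5, ACSL1, ME1, ACLY, ACAT2, FDPS, DHCR7 and EBP. That share, 30.0%, equals the 30.0% of all genes that passed in this comparison, while 18.2% of all genes passed as lower. The median change of the 30 was -0.29, beside 0.02 over all genes, and 26 of the 30 were below 0. With SHP2 miR1 only STARD4 passed, lower, or 1 of 30 beside 4.76% of all genes, and the median was -0.02, beside 0.02. In the pooled comparison STARD4, ELOVL5, ACLY and ACSL1 passed, all lower, or 4 of 30 (13.3%) beside 18.6% of all genes in either direction and 13.1% as lower. The pooled median was -0.17, beside 0.03 over all genes. The shares in either direction were thus at or below those of all genes, whereas the share lower with miR2 was above it. Of the 30 genes, 29 lay above the median level of all genes and 21 above the upper quartile. Over the 12251 genes of highest mean level, 36.9% passed with miR2 and 26.3% passed as lower, at a median of -0.11. The 12251 genes were not matched to the 30 for signal level. No test was made of the list as a whole. Quantile normalization, which evens out the spread of the arrays, left 18 of 30 below 0 with miR2 at a median of -0.10 and 6 passing, beside 27.9% of all genes.

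**Figure D1:**
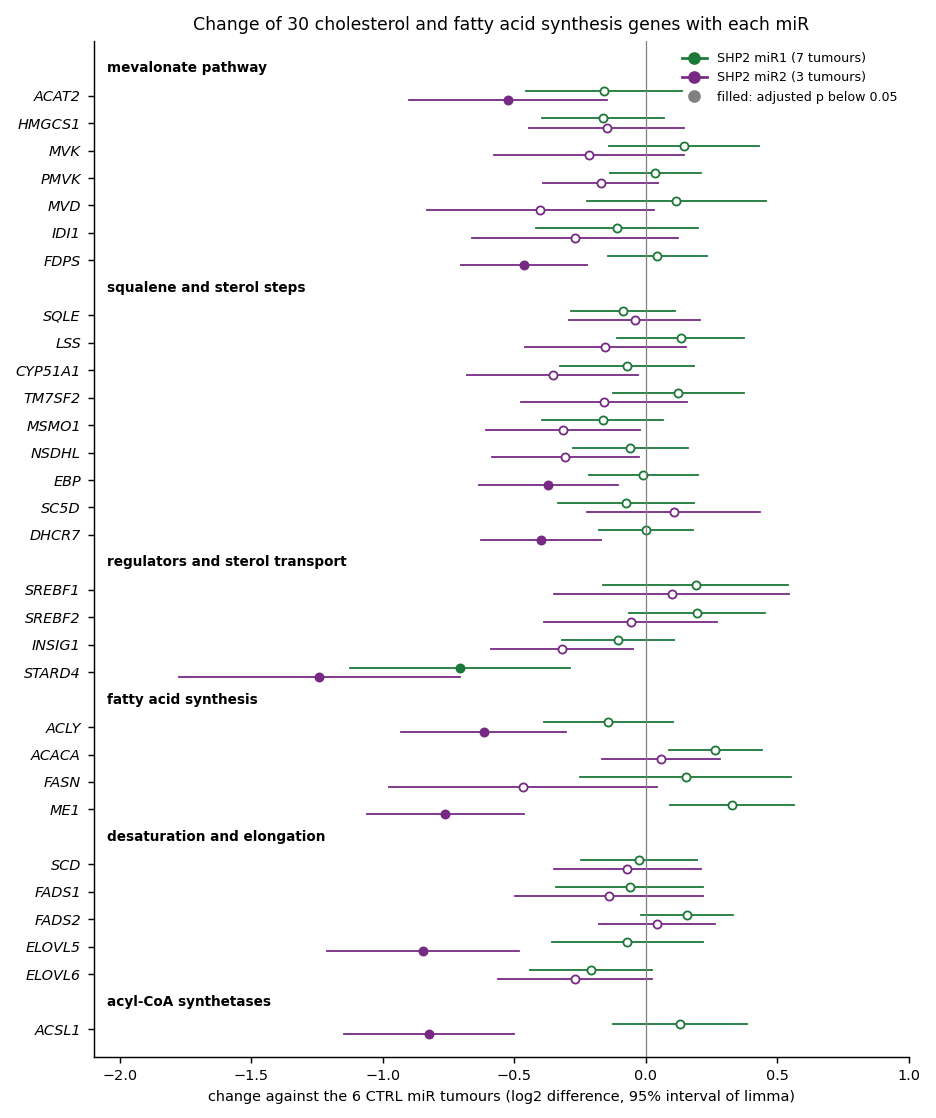
Change of the 30 genes with SHP2 miR1 (green) and SHP2 miR2 (purple) against the 6 CTRL miR tumours, as log2 differences with 95% intervals of the limma model, grouped by role. Filled points passed at an adjusted p below 0.05: 9 with miR2 and STARD4 with miR1, all left of 0.

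In the mevalonate pathway, which makes farnesyl diphosphate from acetyl-CoA, 2 of 7 genes fell with miR2. That was 28.6%, beside 30.0% of all genes passing and 18.2% passing as lower. None of the 7 passed in limma with miR1 or in the pooled comparison, where 0 and 2 had an unadjusted p below 0.05. FDPS, farnesyl diphosphate synthase, ran from 8.05 to 8.29 (median 8.21) in SHP2 miR1 tumours and was 7.70, 7.86 and 7.48 in SHP2 miR2 tumours, against 7.94 to 8.39 (median 8.16) in CTRL miR tumours. All miR2 tumours were below all others. FDPS fell by 0.46 ± 0.11 with miR2 (limma adjusted p = 0.00622), and without SHP2 miR2 tumour 3 the change was -0.37 (adjusted p = 0.0641). ACAT2, the thiolase that joins acetyl-CoA units, ran from 6.85 to 7.31 (median 7.13) with miR1 and was 6.62, 6.84 and 6.64 with miR2, against 6.59 to 7.53 (median 7.40) in controls. The miR2 and control groups overlapped through control tumour 2, at 6.59, while control tumour 5 was at 6.89 and controls 1, 3, 4 and 6 lay between 7.33 and 7.53. The change of ACAT2 with miR2 was -0.53 ± 0.18 (adjusted p = 0.0343). It did not pass when any of CTRL 1, 3, 4 or 6 or miR2 1 or 3 was left out (-0.50 to -0.46, adjusted p 0.0611 to 0.127).

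The other mevalonate genes did not pass with either miR, pooled or between the miRs. HMGCS1, which makes HMG-CoA, averaged 9.66 ± 0.20 with miR1, 9.67 ± 0.14 with miR2 and 9.82 ± 0.23 in controls (SD, n = 7, 3 and 6), a change with miR2 of -0.15 (95% interval -0.44 to 0.15). MVK and PMVK, the kinases of the pathway, differed by 0.14 and 0.04 with miR1 and by -0.22 and -0.17 with miR2. MVD, the decarboxylase, differed by 0.12 with miR1 and -0.40 with miR2 (adjusted p = 0.138), and IDI1, the isopentenyl diphosphate isomerase, by -0.11 and -0.27.

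Among the squalene and sterol steps, 2 of 9 genes fell with miR2 (22.2%), beside 30.0% of all genes passing and 18.2% passing as lower. None of the 9 passed with miR1 or in the pooled comparison of limma, where 0 and 2 had an unadjusted p below 0.05. DHCR7, the reductase of 7-dehydrocholesterol, ran from 8.86 to 9.21 (median 9.04) with miR1 and was 8.84, 8.61 and 8.51 with miR2, against 8.85 to 9.19 (median 9.07) in controls. All miR2 tumours lay below all others, by 0.01 for the closest pair. The change of DHCR7 was -0.40 ± 0.11 (limma adjusted p = 0.0110) and, without SHP2 miR2 tumour 3, -0.33 (adjusted p = 0.0843). EBP, the sterol isomerase, ran from 7.61 to 7.84 (median 7.67) with miR1 and was 7.19, 7.51 and 7.26 with miR2, against 7.46 to 8.03 (median 7.61) in controls. Tumour miR2 2 lay within the control range. The change of EBP was -0.37 ± 0.13 (adjusted p = 0.0335), and it did not pass without CTRL 1 or 4 or without miR2 1 or 3 (-0.34 to -0.30, adjusted p 0.0658 to 0.152). Both genes also missed the threshold after quantile normalization, at -0.22 for DHCR7 and -0.16 for EBP (adjusted p = 0.106 and 0.331).

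The remaining sterol enzymes did not pass against all controls. SQLE, the squalene epoxidase, averaged 9.06 ± 0.14 with miR1, 9.11 ± 0.12 with miR2 and 9.15 ± 0.19 in controls (SD, n = 7, 3 and 6), and its change was -0.09 with miR1 and -0.04 with miR2 (95% interval -0.29 to 0.21). The lanosterol demethylase CYP51A1 and the C4 demethylation enzymes MSMO1 and NSDHL were at -0.35, -0.31 and -0.31 with miR2 (adjusted p = 0.0870, 0.0911 and 0.0842) and at -0.07, -0.16 and -0.06 with miR1. LSS, which closes the sterol rings, and the reductase TM7SF2 were at 0.13 and 0.12 with miR1 and at -0.16 each with miR2. The desaturase SC5D was at -0.08 with miR1 and 0.11 with miR2, the only sterol enzyme above 0 with miR2.

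In the main fit the regulators did not pass against all controls or between the miRs. With the array set as a block SREBF1 passed as higher with miR2, as given below. INSIG1 passed as lower with miR2 in some other fits, such as with array weights or the replicate number as a block. With that replicate block, SREBF1, SREBF2 and INSIG1 also passed as higher with miR1 than with miR2. SREBF1, the SREBP of fatty acid genes, ran from 6.44 to 7.23 (median 7.09) in SHP2 miR1 tumours, was 6.95, 6.72 and 6.74 in SHP2 miR2 tumours, and ran from 6.14 to 7.09 (median 6.81) in CTRL miR tumours. SREBF2, the SREBP of sterol genes, ran from 7.76 to 8.34 (median 8.20) with miR1, was 7.82, 7.90 and 7.76 with miR2, and ran from 7.64 to 8.28 (median 7.84) in controls. For both genes the groups overlapped widely, and the changes were 0.19 and 0.20 with miR1 and 0.10 and -0.06 with miR2. INSIG1, which retains SCAP and is itself an SREBP target, ran from 7.40 to 7.86 (median 7.63) with miR1, was 7.46, 7.29 and 7.41 with miR2, and ran from 7.35 to 7.95 (median 7.73) in controls. For INSIG1, tumour miR2 2 lay below the lowest control and the other miR2 tumours at the low end of the control range. The change of INSIG1 with miR2 was -0.32 ± 0.13 (limma adjusted p = 0.0677, 95% interval -0.59 to -0.05).

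STARD4, a cytosolic sterol carrier whose gene is a known SREBP target, had the largest change of the 30 and was the only one that passed with both miRs. It ran from 4.72 to 5.58 (median 4.89) in SHP2 miR1 tumours, was 4.69, 4.37 and 4.42 in SHP2 miR2 tumours, and ran from 4.93 to 6.25 (median 5.99) in CTRL miR tumours. All miR2 values were below the rest, whereas the miR1 range overlapped that of control tumours 2 and 5, which were at 5.08 and 4.93. Controls 1, 3, 4 and 6 were higher, at 5.98 to 6.25. The change was -0.71 ± 0.20 with miR1 (adjusted p = 0.0476), -1.24 ± 0.26 with miR2 (42.3% of the control level, adjusted p = 0.0018) and -0.97 ± 0.19 in the pooled comparison (adjusted p = 0.00273). With miR1 STARD4 passed in 3 of 16 fits that left out a tumour, those without CTRL 2, CTRL 5 or miR1 3. In the other 13 the change was -0.74 to -0.60 (adjusted p 0.0567 to 0.133).

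The fatty acid genes held the other large changes. ACLY, which cleaves citrate to cytosolic acetyl-CoA, ran from 9.38 to 9.90 (median 9.78) in SHP2 miR1 tumours and was 9.24, 9.38 and 9.01 in SHP2 miR2 tumours, against 9.40 to 10.08 (median 9.82) in CTRL miR tumours. Every miR2 tumour was below every other tumour, with small gaps. ACLY fell by 0.62 ± 0.15 with miR2 (limma adjusted p = 0.00561) and by 0.38 ± 0.11 in the pooled comparison (adjusted p = 0.0252). Without SHP2 miR2 tumour 3 these became -0.52 (adjusted p = 0.0543) and -0.33 (0.0810), and the pooled change of ACLY also missed the threshold without CTRL 1, 3 or 6 (-0.38 to -0.33, adjusted p 0.0512 to 0.0761).

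ME1, the cytosolic malic enzyme that yields NADPH, ran from 7.74 to 8.28 (median 7.89) with miR1 and was 6.98, 6.97 and 6.67 with miR2, against 7.39 to 7.89 (median 7.66) in controls. The order was miR2 lowest, then controls, then miR1, with overlap only between miR1 and controls. ME1 fell by 0.76 ± 0.14 with miR2 (58.9% of the control level, adjusted p = 0.000985), while with miR1 it was at 0.33 ± 0.11 (adjusted p = 0.107). These opposite values gave a pooled change of -0.22 (adjusted p = 0.164).

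ACACA and FASN, which make malonyl-CoA and palmitate, did not pass against all controls. ACACA averaged 10.13 ± 0.11 with miR1, 9.93 ± 0.05 with miR2 and 9.87 ± 0.17 in controls (SD, n = 7, 3 and 6), at 0.26 with miR1 (adjusted p = 0.0798) and 0.06 with miR2. With the array set as a block ACACA passed as higher with miR1, at 0.25 ± 0.064, and in the pooled comparison, at 0.20 ± 0.063 (limma adjusted p = 0.0287 and 0.0276). It also passed with miR1 under array weights, median centring and an intensity trend with a robust prior, and was at 0.12 against control tumours 2 and 5 alone (adjusted p = 0.906). FASN ran from 9.27 to 10.18 with miR1, was 9.14, 9.27 and 9.18 with miR2, and ran from 9.11 to 10.27 in controls. Its change was 0.15 with miR1 and -0.47 with miR2 (adjusted p = 0.145), and the wide miR1 and control ranges followed the array sets described below.

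Of the desaturases and elongases, 1 of 5 passed with miR2 (20.0%, beside 30.0% of all genes). The only one to pass was ELOVL5, which lengthens polyunsaturated fatty acids. It ran from 8.99 to 9.39 (median 9.12) in SHP2 miR1 tumours and was 8.26, 8.66 and 8.24 in SHP2 miR2 tumours, against 8.88 to 9.71 (median 9.12) in CTRL miR tumours. The miR2 tumours were below all others. ELOVL5 fell by 0.85 ± 0.17 with miR2 (55.6% of the control level, limma adjusted p = 0.00185) and was at -0.07 with miR1. In the pooled comparison it fell by 0.46 ± 0.13 (adjusted p = 0.0208), with -0.43 without miR2 1 and -0.42 without miR2 3 (adjusted p = 0.0565 and 0.0620). SCD, the stearoyl-CoA desaturase, averaged 9.58 ± 0.21 with miR1, 9.53 ± 0.25 with miR2 and 9.60 ± 0.14 in controls (SD, n = 7, 3 and 6), a change with miR2 of -0.07 (95% interval -0.35 to 0.21). The desaturases FADS1 and FADS2 were at -0.14 and 0.04 with miR2, and ELOVL6, the elongase of saturated chains, at -0.27 (adjusted p = 0.143).

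ACSL1 activates long-chain fatty acids to acyl-CoA, and its level was even within each knockdown group (SD 0.05 in both). It ran from 8.67 to 8.81 (median 8.74) in SHP2 miR1 tumours and was 7.83, 7.79 and 7.73 in SHP2 miR2 tumours, against 8.20 to 9.09 (median 8.46) in CTRL miR tumours. No other tumour was as low as the miR2 tumours, and the miR1 tumours lay between control tumours 2 and 5, at 9.09 and 9.06, and the other 4, at 8.20 to 8.46. ACSL1 fell by 0.83 ± 0.15 with miR2 (56.4% of the control level, adjusted p = 0.000955) and was at 0.13 with miR1 (adjusted p = 0.661). The pooled change was -0.35 ± 0.12 (adjusted p = 0.0435), which passed in 2 of 16 fits that left out a tumour, those without CTRL 3 or CTRL 4. In the other 14 it ran from -0.38 to -0.25 (adjusted p 0.0520 to 0.0969).

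**Figure D2:**
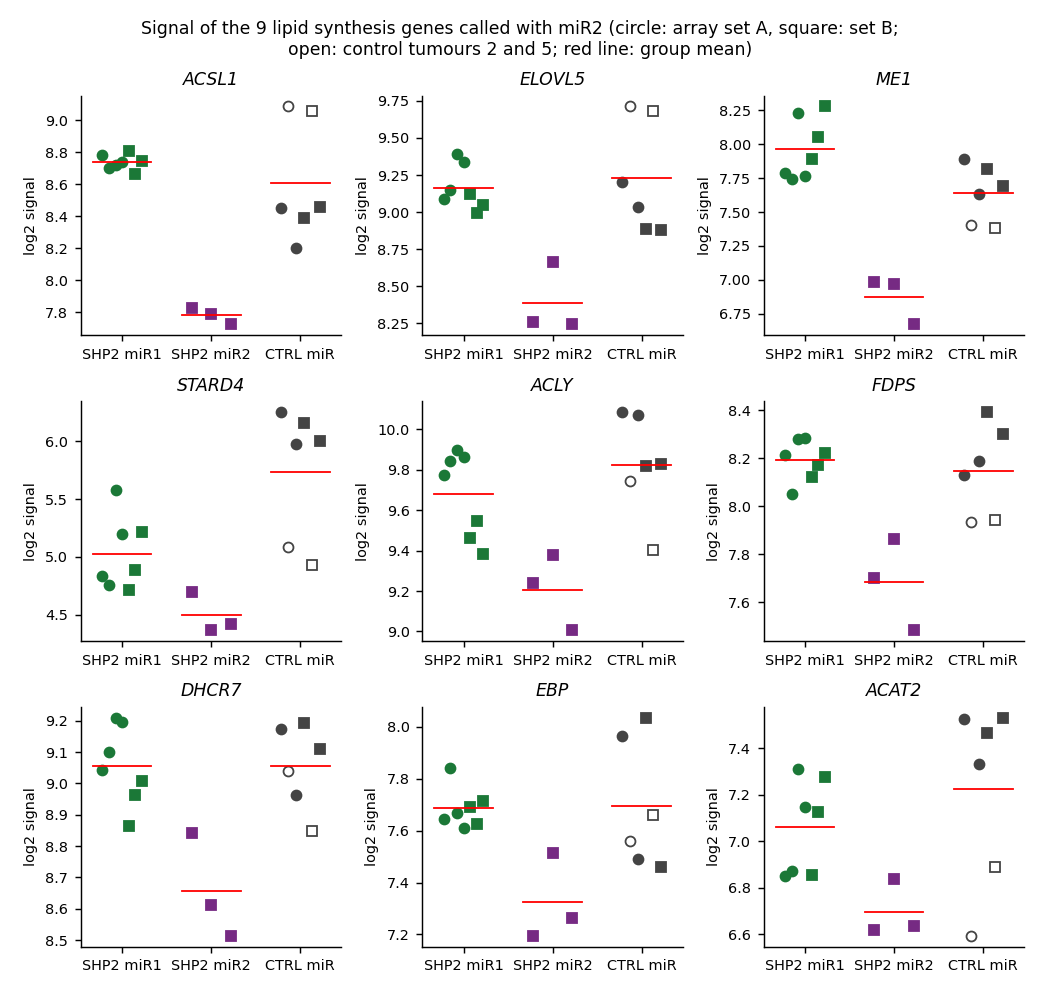
Log2 signal of the 9 genes that passed with miR2, 1 point per tumour, with the group mean in red, circles for array set A, squares for set B and open symbols for control tumours 2 and 5. ACSL1, ELOVL5, ME1, STARD4, ACLY, FDPS and DHCR7 have all 3 SHP2 miR2 tumours below all 6 CTRL miR tumours.

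No lipid synthesis gene separated all 10 knockdown tumours from all 6 controls, beside 0.463% of all genes. For 7 of the 30 the miR2 tumours were all below the controls, beside 17.8% of all genes without overlap in either direction. For 10 of the 30 all SHP2 miR1 tumours were above all SHP2 miR2 tumours, beside 20.1% of all genes without overlap in either direction. Tumour miR2 3 had the lowest value of all 16 tumours for 11 of the 30 genes, and control tumour 1 the highest for 7. How often these tumours were extreme over all genes was not counted, and the array of miR2 3 had a narrow spread (SD 1.89).

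Set directly against each other, SHP2 miR1 tumours were higher than SHP2 miR2 tumours in 7 of 30 genes and lower in none, or 23.3% beside 22.5% of all genes. As higher alone, 14.3% of all genes passed. The median difference of the 30 was 0.27, beside -0.0042 over all genes. For the 30 it was 0.13 with the array set as a block, 0.059 with quantile normalization and 0.031 with cyclic loess normalization. Over the 12251 genes of highest mean level, not matched to the 30 for level, the median was 0.13. Of those genes 30.8% passed in either direction and 23.1% as higher. ME1 differed most, by 1.09 ± 0.14 (2.13-fold, limma adjusted p = 3.35e-05), followed by ACSL1 at 0.96 ± 0.15 (1.94-fold, adjusted p = 0.000284) and ELOVL5 at 0.78 ± 0.17 (adjusted p = 0.00404). FDPS, ACLY, DHCR7 and EBP differed by 0.51, 0.47, 0.40 and 0.36. All 4 missed the threshold with cyclic loess normalization and in set B alone. Without SHP2 miR2 tumour 3 these 4 were at 0.41, 0.37, 0.33 and 0.33 (adjusted p = 0.0549, 0.184, 0.109 and 0.174). ACLY also missed the threshold without miR1 3 or miR2 1 (adjusted p = 0.0533 and 0.0862), and EBP without miR1 1, 2, 3, 4 or 7 or miR2 1 (adjusted p 0.0525 to 0.189). STARD4, which passed with each miR, differed by 0.53 ± 0.25 between them (adjusted p = 0.117), so a difference between the miRs was not shown for it. PTPN11 itself was higher with miR1 than with miR2, by 0.46 ± 0.12 (adjusted p = 0.0115).

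The controls were not alike in these genes. Control tumours 2 and 5, the pair with low IRS4 and HOXD10, were both above the other 4 controls for 2 of 30 genes, ELOVL5 and ACSL1, beside 16.6% of all genes. They were both below the other 4 for 8 genes, ACAT2, FDPS, SQLE, STARD4, ACLY, ME1, FADS1 and ELOVL6, beside 19.0% of all genes. Against control tumours 2 and 5 alone, the pooled change passed for 2 of 30 genes, beside 0.751% of all genes: ELOVL5 at -0.92 ± 0.14 (adjusted p = 0.00144) and ACSL1 at -0.81 ± 0.10 (adjusted p = 0.00029). With miR2 the same genes passed, at -1.31 and -1.29 (adjusted p = 4.36e-05 and 1.97e-06), beside 4.37% of all genes. None passed with miR1, beside 0.136% of all genes, and 5 of the 30 had an unadjusted p below 0.05 there. Against control tumours 1, 3, 4 and 6 alone, the pooled change passed for 9 of 30 genes, beside 35.5% of all genes. ELOVL5 and ACSL1 were not among them, at -0.23 and -0.12. With miR2 both still passed against those 4 controls, at -0.61 and -0.59. With miR1 5 of 30 genes passed against them, beside 18.8% of all genes, among them ACSL1 as higher, at 0.36.

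Against control tumours 2 and 5, STARD4 was at 0.02 with miR1 and -0.51 ± 0.21 with miR2 (limma adjusted p = 0.992 and 0.189). ME1 was at 0.57 with miR1 and -0.52 with miR2 (adjusted p = 0.286 and 0.100), ACLY at -0.37 with miR2 and FDPS at -0.26 with miR2 (adjusted p = 0.272 and 0.319). ACAT2 was at -0.04 with miR2, and the median over the 30 genes was 0.088 with miR1 and -0.19 with miR2. With 2 controls the test has less precision, and what sets these controls apart was not tested.

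**Figure D3:**
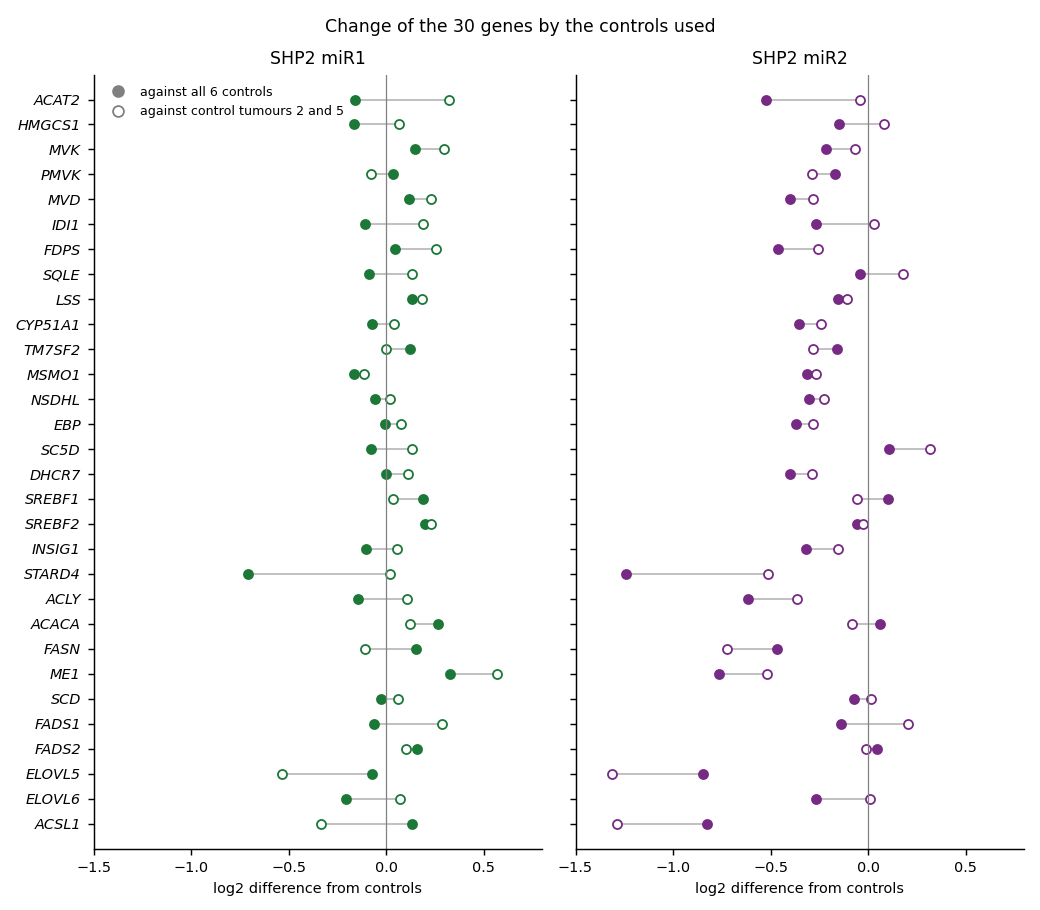
Change of each of the 30 genes with SHP2 miR1 (left) and SHP2 miR2 (right), as log2 differences against all 6 CTRL miR tumours (filled) and against control tumours 2 and 5 alone (open). STARD4 is at -0.71 (all controls) and 0.02 (the pair) with miR1 and at -1.24 and -0.51 with miR2, while ELOVL5 and ACSL1 lie lower against the pair.

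Much of the spread within groups followed the array sets. Within SHP2 miR1, all 4 set A tumours were above all 3 set B tumours for 15 of the 30 genes, beside 15.7% of all genes. The reverse held for 2 of the 30, HMGCS1 and MSMO1, beside 2457 of all 18377 genes. Within CTRL miR, set A was above set B for 8 genes, beside 11.8% of all genes. All 8 are among those 15 (MVK, MVD, LSS, TM7SF2, NSDHL, SREBF1, SREBF2 and FASN). Only MSMO1, 1 of the 30, again ran the other way, beside 2155 of all 18377 genes. With miR1, set A tumours had FASN at 10.13 to 10.18 and set B tumours at 9.27 to 9.43. In controls the set A values were 9.75 to 10.27 and the set B values 9.11 to 9.57. As all miR2 tumours were in set B, their level of FASN (9.14 to 9.27) is set beside the set B controls.

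Within set B, where 3 tumours of each group could be compared, 8 of 30 genes fell with miR2, beside 13.9% of all genes passing. They were STARD4 (-1.21), ACSL1 (-0.85), ME1 (-0.76), ELOVL5 (-0.76), ACAT2 (-0.60), FDPS (-0.53), MSMO1 (-0.50) and ACLY (-0.48), with limma adjusted p between 0.00766 and 0.0484. DHCR7 and EBP were at -0.40 and -0.39 (adjusted p = 0.0645 and 0.0989). FASN was at -0.12, MVD at -0.13 and MVK at -0.02, smaller than against all controls. MSMO1, the methyl sterol monooxygenase, was 7.40, 7.13 and 7.24 with miR2, against 7.68 to 7.84 in the set B controls, with no overlap (adjusted p = 0.0168). SREBF1 was at 0.43 ± 0.14 with miR2 in set B (adjusted p = 0.0602).

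With the array set as a block over all tumours, 11 of 30 genes passed with miR2, beside 24.9% of all genes. These were the 9 named above, MSMO1 (-0.49, adjusted p = 0.00164) and SREBF1, which was the only one to rise (0.43, adjusted p = 0.00779). Between SHP2 miR1 and SHP2 miR2 within set B, 2 of 30 passed, beside 5.29% of all genes: ME1 at 1.20 ± 0.15 (adjusted p = 0.00108) and ACSL1 at 0.96 ± 0.16 (adjusted p = 0.00634). What the array sets stand for is not in the labels and was not tested.

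**Figure D4:**
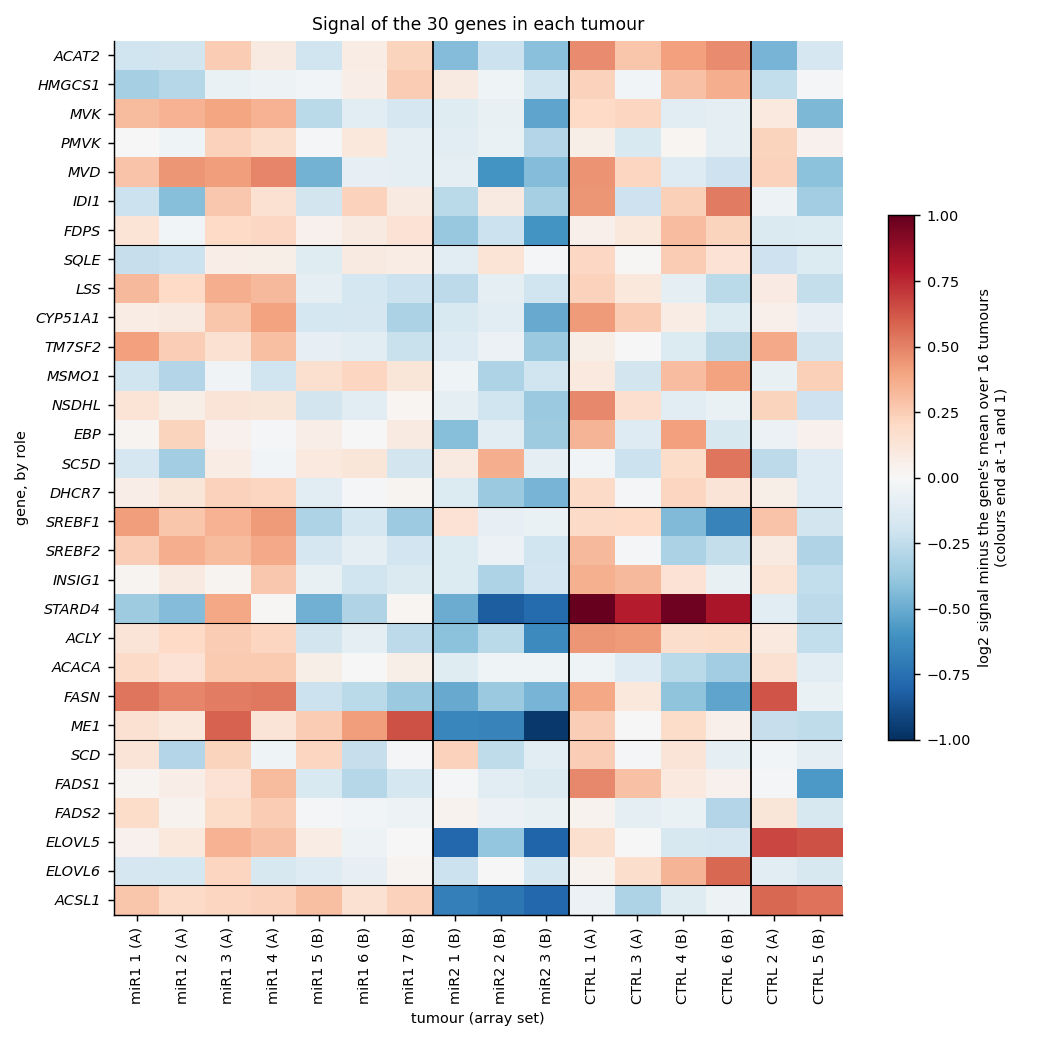
Log2 signal of each of the 30 genes minus its mean over the 16 tumours, by tumour and array set (A or B in brackets), with SHP2 miR1, SHP2 miR2, control tumours 1, 3, 4 and 6, and control tumours 2 and 5 from left to right. MVK, MVD, LSS, SREBF1, SREBF2 and FASN follow the array set, STARD4 is high in control tumours 1, 3, 4 and 6, and ACSL1, ELOVL5 and ME1 are low in the 3 SHP2 miR2 tumours.

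Other genes of sterol handling were taken from a list of 20, of which 16 are analysed here. In the pooled comparison 2 of the 16 rose and 4 fell (37.5%), beside 18.6% of all genes passing, and the median was -0.06, beside 0.03 over all genes. With miR2 the counts were the same, beside 30.0% of all genes, at a median of -0.18 beside 0.02. LBR, which has the same sterol reductase activity as TM7SF2 besides its role at the nuclear lamina, ran from 8.05 to 8.41 with miR1 and from 6.58 to 7.22 with miR2, against 7.83 to 8.90 in controls. LBR fell by 1.53 ± 0.20 with miR2 (limma adjusted p = 4.67e-05) and by 0.93 against control tumours 2 and 5 alone (adjusted p = 0.00218). TMEM97, a sterol-responsive membrane protein, fell by 0.72 with miR2, and by 0.54 against that pair (adjusted p = 0.000131 and 0.0258). Neither passed with miR1, where they were at -0.19 and -0.06. SCAP and the cholesterol esterifying enzyme SOAT1 fell in the pooled comparison by 0.38 and 0.40 (adjusted p = 0.0164 and 0.0124). GGPS1, the geranylgeranyl diphosphate synthase, rose by 0.25 and the ubiquitin ligase MYLIP by 0.51 (adjusted p = 0.0171 and 0.00316). INSIG2 was at -0.03. Against control tumours 2 and 5 alone none of the 16 passed in the pooled comparison of limma, beside 0.751% of all genes, and 1 had an unadjusted p below 0.05.

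Targets of LXR, the receptor that senses oxysterols, and genes of sterol efflux were measured for 9 of 10 listed. With miR2, ABCA1, ABCG1 and MYLIP rose and none fell, or 33.3% beside 30.0% of all genes passing and 11.8% passing as higher. The median of the 9 with miR2 was 0.22, beside 0.02 over all genes, and 3 of the 9 were below 0. In the pooled comparison 3 rose and 1 fell (44.4%), beside 18.6% of all genes passing. The efflux pump ABCA1 ran from 4.83 to 5.38 with miR1 and from 5.69 to 6.06 with miR2, against 4.69 to 5.21 in controls. The miR2 tumours were above all others. ABCA1 rose by 1.05 ± 0.15 and the related pump ABCG1 by 0.87 ± 0.12 with miR2 (limma adjusted p = 7.74e-05 and 7.01e-05), and they were at 0.21 and 0.01 with miR1. The difference of miR1 from miR2 was -0.84 for ABCA1 and -0.86 for ABCG1 (adjusted p = 0.000597 and 6.73e-05). Against control tumours 2 and 5 both still rose with miR2, by 0.75 and 0.63 (adjusted p = 0.0165 and 0.00664). PLTP, the phospholipid transfer protein, fell in the pooled comparison by 0.72 (adjusted p = 0.0152), with control tumours 2 and 5 at 5.03 and 5.19, beside 4.88 to 5.60 in all knockdown tumours.

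A further 30 genes of fatty acid and glycerolipid synthesis were listed and 28 measured. In the pooled comparison 2 rose (FADS3 and ACSL5) and 6 fell (ELOVL2, ACSL4, ELOVL4, PNPLA3, GPAM and PGD), or 28.6% beside 18.6% of all genes passing and 21.4% beside 13.1% passing as lower. Against control tumours 2 and 5 alone none of the 28 passed in limma pooled, with miR1 or with miR2, beside 0.751%, 0.136% and 4.37% of all genes (1, 0 with miR1 and 8 with miR2 had an unadjusted p below 0.05). The largest, the elongase ELOVL2 at -1.17 ± 0.28 and the acyl-CoA synthetase ACSL4 at -1.04 ± 0.29 (limma adjusted p = 0.00812 and 0.0184), were at 3.77 and 3.91, and at 3.67 and 3.71, in control tumours 2 and 5, within the range of the knockdown tumours. PGD, an NADPH source of the pentose phosphate pathway, fell by 0.70 ± 0.14 with miR2 (adjusted p = 0.00151) and was at -0.04 with miR1.

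Some markers of host cells rose with miR2, where 30.0% of all genes passed and 11.8% passed as higher. Of 14 adipocyte markers, 5 rose with miR2 (PLIN1, PLIN4, LIPE, LPL and CFD), and none passed with miR1, beside 4.76% of all genes. Their summed linear signal was 380 to 508 in SHP2 miR1 tumours, 503 to 651 in SHP2 miR2 tumours and 387 to 526 in CTRL miR tumours. The defining adipocyte genes ADIPOQ, at 3.09 to 3.99, and FABP4, at 2.51 to 3.24, lay near or below the lower quartile of the arrays (3.72 to 4.04) in all tumours. Of 12 macrophage markers 7 rose with miR2, with summed signals of 253 to 300.5 (miR1), 288 to 368 (miR2) and 217 to 282 (CTRL miR). With miR1 only LYZ passed, as higher. Of 11 fibroblast markers 6 rose and COL5A2 fell with miR2, with sums of 932 to 1135 (miR1), 1077 to 1257 (miR2) and 735 to 1010 (CTRL miR). With miR1 COL1A1 and COL1A2 rose and COL5A2 fell. Of 9 skeletal muscle markers 3 rose with miR2 (MB, MYL11 and TNNI2) and all 9 changes were above 0 with each miR, with sums of 404 to 899 (miR1), 495 to 1167 (miR2) and 407 to 520.0 (CTRL miR). Of 9 endothelial markers CLDN5 and VWF rose with miR2, with sums of 243 to 289 (miR1), 255 to 337 (miR2) and 242 to 306 (CTRL miR). Against control tumours 2 and 5 alone, only LYZ and COL1A2 of the host markers rose with miR2, and COL5A2 fell. In that comparison 4.37% of all genes passed, and none of the adipocyte, endothelial or skeletal muscle markers did. Of those, 5 of 14, 0 of 9 and 1 of 9 had an unadjusted p below 0.05 in limma. Of 11 luminal markers of the tumour cells, ESR1, GATA3 and EPCAM rose with miR2 and ESR1 with miR1. Between the miRs 6 of these 11 passed, beside 22.5% of all genes. KRT8, KRT18, KRT19 and FOXA1 were higher with miR1 than with miR2, by 0.41, 0.49, 0.56 and 0.49, and ESR1 and GATA3 were lower, at -0.53 and -0.78 (limma adjusted p between 0.000546 and 0.0401). The part of host cells, or of these luminal markers, in the changes of the lipid synthesis genes was not tested.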

How the data were processed

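RNA of each tumour (100 ng) was hybridised to the Affymetrix array HuGene-1_0-st-v1, as the labels' protocols state. The deposited values are taken as log2 signals, 1 for each transcript cluster on each array, since the lowest is 1.54, the highest 13.63 and each array's median between 5.21 and 5.41. The submitters' processing notes name R 2.10 and oligo 1.8. How background and arrays were normalized is not given in the sources used here.

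Clusters with exactly 1 gene symbol in the platform annotation were used (19310 of 28869, with 1752 under several symbols and 7807 under none). A gene with more than 1 such cluster (685 genes) was read from its brightest on average, leaving 18377 genes, all of which were tested without an intensity filter. The 3 groups were modelled together with limma (version 3.58.1, R 4.3.3, eBayes on lmFit, residual df 13), with Benjamini-Hochberg adjustment over all genes of each contrast, and the fit was checked on simulated data. An exact two-sided permutation test over tumours was added for PTPN11. For arrays, their number limits the precision. Promoters and current symbols are from RefSeq (GRCh38.p14). Replicate numbers are those of the labels. The labels do not say that a number marks a shared animal or batch. Deviations of same-numbered tumours correlated at 0.21 to 0.369 in 5 of 6 CTRL and miR1 pairs and at -0.302 in the other, and at -0.42 to 0.022 in the 6 pairs with an miR2 tumour, so no pairing was used. The first 5 pairs each lie within 1 array set, while the other pairs cross sets A and B. These correlations thus cannot tell a shared number from a shared array set.

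Values by tumour are given for members that passed in a contrast and for SREBF1, SREBF2 and INSIG1. Other pathway genes are named by smallest adjusted p, up to 6 a list, plus SCAP and INSIG2. The members, lists, control split, array sets and alternatives were chosen with earlier results of these data known. Alternatives were other normalizations, a filter, other priors and weights, blocks, subsets of tumours and leaving out each tumour. Plots were drawn with matplotlib 3.10.9.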

Additional observations from a re-analysis of the deposited data

How the results depend on the processing

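Leaving out each tumour in turn gave 1 to 8 lipid synthesis genes passing in the pooled comparison, 0 to 2 with SHP2 miR1, 4 to 11 with SHP2 miR2 and 3 to 9 between the miRs. The lowest counts with miR2 and between the miRs came without SHP2 miR2 tumour 3, and the highest with miR2 without control tumour 5. Pooled counts, each with the share of all genes passing, were 2 with quantile normalization (20.0%), 2 with cyclic loess (18.0%), 10 with array weights (38.3%), 7 with the array set as a block (22.3%), 0 in set B alone (1.67%), 9 against control tumours 1, 3, 4 and 6 (35.5%) and 2 against control tumours 2 and 5 (0.751%). With miR1 they were 0 with quantile normalization, cyclic loess, set A alone, set B alone, control tumours 2 and 5 or only the groups compared (0.00544% to 4.77%), 2 with the array set as a block (6.67%) or an intensity trend with a robust prior (4.77%), 3 with array weights (18.3%) and 5 against controls 1, 3, 4 and 6 (18.8%). With miR2, 5 passed with cyclic loess (23.7%) and 2 against control tumours 2 and 5 (4.37%). Between the miRs, 3 passed with cyclic loess (12.3%), 4 with quantile normalization (15.8%), 11 with only the groups compared (29.2%) and 2 in set B (5.29%). STARD4 with miR1 turned to 0.021 against control tumours 2 and 5. The median with miR2 was -0.10 with quantile normalization, -0.11 with cyclic loess, -0.16 with the set block, -0.15 in set B and -0.19 against control tumours 2 and 5. Against that pair it was 0.088 with miR1 and -0.0056 pooled. Between the miRs the median was 0.059, 0.031, 0.13 and 0.14 with quantile normalization, cyclic loess, the set block and set B. The replicate number as a block gave 15 genes with miR2 (39.5% of all genes), 16 between the miRs (36.9%) and a median difference of 0.41, while correlations of same-numbered tumours ran from -0.42 to 0.369 and were not above 0.1 in every pair. That block sets the miR2 tumours, all in set B, beside same-numbered control and miR1 tumours of set A. ACSL1 and ELOVL5 with miR2, and ME1 and ACSL1 between the miRs, passed in every alternative run. ME1 and STARD4 with miR2 passed in all except control tumours 2 and 5 alone. The causes were not tested. Scan dates were not used here, and the number of miR2 tumours (3) limits the precision.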

Other observations

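Of fatty acid oxidation genes, which break down the chains that the synthesis genes build, 8 of 18 measured (20 listed) fell with SHP2 miR2 and none rose. That is 44.4%, beside 30.0% of all genes passing and 18.2% passing as lower. The median was -0.30, beside 0.02 over all genes, and the highest was ACADS at 0.34 (limma adjusted p = 0.0732). SLC25A20, the carnitine-acylcarnitine carrier of mitochondria, ran from 5.12 to 5.91 in SHP2 miR1 tumours and from 4.38 to 4.77 in SHP2 miR2 tumours, against 5.31 to 6.27 in CTRL miR tumours. The miR2 tumours were below all others. SLC25A20 fell by 1.28 ± 0.20 with miR2 (limma adjusted p = 0.00018) and was at -0.37 with miR1 (adjusted p = 0.201). ACADM, the medium-chain acyl-CoA dehydrogenase, was the only gene of the list to pass with miR1, at -0.66 ± 0.15, and fell by 1.13 ± 0.19 with miR2 (adjusted p = 0.0169 and 0.000364). The thiolase ACAA2 fell by 1.14 with miR2 and was at -0.10 with miR1 (adjusted p = 0.0037 and 0.874). Between the miRs 6 of the 18 were higher with miR1, beside 22.5% of all genes passing in either direction and 14.3% as higher, among them ACAA2 (1.04), SLC25A20 (0.91) and the carnitine palmitoyltransferases CPT2 (0.57) and CPT1A (0.51), and ACADS was lower (-0.40). Against control tumours 2 and 5 alone, SLC25A20 (-0.80) and ACADM (-0.58) still passed with miR2 (adjusted p = 0.0225 and 0.0423), beside 4.37% of all genes, and none passed in the pooled comparison of limma, beside 0.751%, where 2 had an unadjusted p below 0.05.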
